A study of Mus musculus with 21 samples.

Results

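The cytosolic ribosomal protein (RP) mRNAs encode the protein parts of the large (60S) and small (40S) ribosomal subunits outside mitochondria. They were followed here by RNA bisulphite sequencing of mouse back skin, in which unmethylated cytosines are converted and read as thymine, and methylated or otherwise protected cytosines remain unconverted. Members were the cytosines in exons, on the sense strand, of protein-coding genes whose symbol is Rpl or Rps with a number, plus Rplp0, Rplp1, Rplp2 and Rpsa. The kinases named Rps6k were not included. By this rule there were 80 RP genes, of which 44 had at least 1 listed cytosine among 8258 genes with a listed exonic cytosine. They held 2530 of the 897815 cytosines listed in all.

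The libraries came from total back skin of male mice at postnatal day 25, in the growth phase of the hair cycle. NSun2-/- mice carried a gene trap in Nsun2 in the whole animal, on a mixed C57Bl6/J and CBA F1 background, and wild-type (WT) mice came from the same breedings. Each genotype had 4 libraries, labelled as independent biological replicates. All mice of a comparison shared age, sex and tissue, and skin was not separated into cell types. The gene trap was introduced in 1 embryonic stem cell clone.

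Transcripts of Nsun2, the targeted gene, checked the labels. In WT replicates 1 to 4, 31, 23, 48 and 43 cytosines of Nsun2 were listed, with a summed coverage of 462, 257, 878 and 910 reads. In the 4 NSun2-/- libraries, 0 were listed, although 3 of them were deeper than every WT library. A cytosine is listed only from 10 reads, so 0 here means fewer than 10 reads at each position.

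Ribosomal proteins are made in matched amounts in every cell, and their short, abundant mRNAs begin with a tract of pyrimidines through which growth signals control translation. Their genes are known for 2 further traits that matter for sequencing. Introns of many RP genes encode small nucleolar RNAs (snoRNAs), the guides that direct modification of ribosomal RNA. RP mRNAs have also been copied back into the genome many times, as intronless processed pseudogenes. NSun2 is a cytosine-5 RNA methyltransferase best known for its action on transfer RNAs.

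Depth differed between libraries. Coverage summed over listed cytosines ranged from 8681271 reads in NSun2-/- replicate 2 to 60455763 in NSun2-/- replicate 3, with 24515961 to 37612638 in WT. Because listing needs 10 reads, the number of RP genes listed depended on depth, though not in strict order. It was 30, 25, 31 and 30 in WT replicates 1 to 4 and 42, 26, 41 and 39 in NSun2-/- replicates 1 to 4. The shallowest library, NSun2-/- replicate 2, thus listed 26, against 25 in WT replicate 2. Comparisons of sums and of genes therefore used the 988 RP cytosines listed in all 8 libraries, which lay in 25 genes. Single cytosines were tested where they reached 10 reads in 3 or more libraries per genotype. Exons also took different parts of each library. They held 35.5% to 48.5% of coverage in WT and 66.2% to 73.8% in NSun2-/- skin, and the groups did not overlap, so coverage was compared between genotypes relative to exonic coverage. Values given as reads, or as reads per cytosine, are not scaled. In every sum of coverage, a read is counted once at each listed cytosine that it covers.

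Of the 2530 RP cytosines, 2295 lay in the representative mRNAs of 35 genes and 235 lay in exons that belong only to other annotated transcripts. By region, 2113 were in coding sequence, 101 in 5′ untranslated regions and 81 in 3′ untranslated regions. Both subunits were represented, with 24 of 45 large subunit genes, 17 of 32 small subunit genes and all 3 genes of the P stalk (Rplp0, Rplp1 and Rplp2), the flexible arm of the 60S subunit that recruits translation factors. The best covered mRNAs included Rpl8, with 199 of its 238 cytosines listed, and Rpl4 with 212 of 331. No cytosine was listed for 36 genes, among them Rpl3, Rpl18, Rps3a, Rps6 and Rps7. The paralogs Rpl3l, Rpl10l, Rpl39l and Rps27l were also among these.

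The gaps were not spread evenly along the mRNAs. The 80 representative mRNAs contain 16646 cytosines, of which 13.8% were listed. Within 9 bases of an exon junction the share was 8.04%, at 10 to 24 bases 13.6%, at 25 to 49 bases 18.6% and at 50 to 99 bases 22.7%. At 100 bases or more, it was 5.70%. Listed cytosines were thus rarest beside junctions and in the positions farthest from them. The genome was searched, after conversion of every cytosine to thymine, for each 50-base window of these mRNAs. Only 36.8% of 64923 windows lay within 1 exon and occurred nowhere else, 36.9% lay within 1 exon and occurred elsewhere too, and 21.4% crossed a junction and had a match elsewhere in the genome, at a copy without the intron. Cytosines within a unique window of 1 exon were listed in 20.1% of cases, against 7.88% for the others.

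At the copies, cytosines were listed in large number. Coverage at the copies was 2.18 to 3.44 times that in the RP mRNA exons, depending on the library, and 4729 cytosines were listed there. Pseudogenes held 45.6% of the coverage at copies, and annotated protein-coding loci 21.3%. Of the 45 RP genes without a listed cytosine in their own mRNA, 30 had listed cytosines at a copy and 15 had neither. Coverage was higher at copies than in the own exons for 51 of the 80 genes. Rps3a, a 40S protein, is an example, since its own mRNA had none listed while the copy Gm9000 at chr13:109460773-109461634 (mm9) had 53 cytosines listed. RNA from an RP gene and RNA from its copy cannot be told apart where they share sequence.

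A junction-spanning sequence is shown to illustrate this overlap. Capitals mark the last base of the upstream exon and the first base of the downstream exon. The 30-base stretch is 5′ to 3′, as it stands in the copy without the intron, and is identical to the spliced mRNA.
Rpl18 in Rpl18-ps2, chr6:128263657-128263686 (mm9, plus strand): gttcccaagctgaaGGtgtgtgcactgcgg
In its own gene on chromosome 7, the Rpl18 stretch is interrupted by an intron of 275 bases. Rpl18 had no cytosine listed in its own exons. Across the stretch in the pseudogene, 7 cytosines were listed, with means of 165, 195, 161 and 116 reads per cytosine in WT replicates 1 to 4 and 397, 48.0, 304 and 167 in NSun2-/- replicates 1 to 4. These cytosines were therefore covered in every library of both genotypes.

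**Figure D1:**
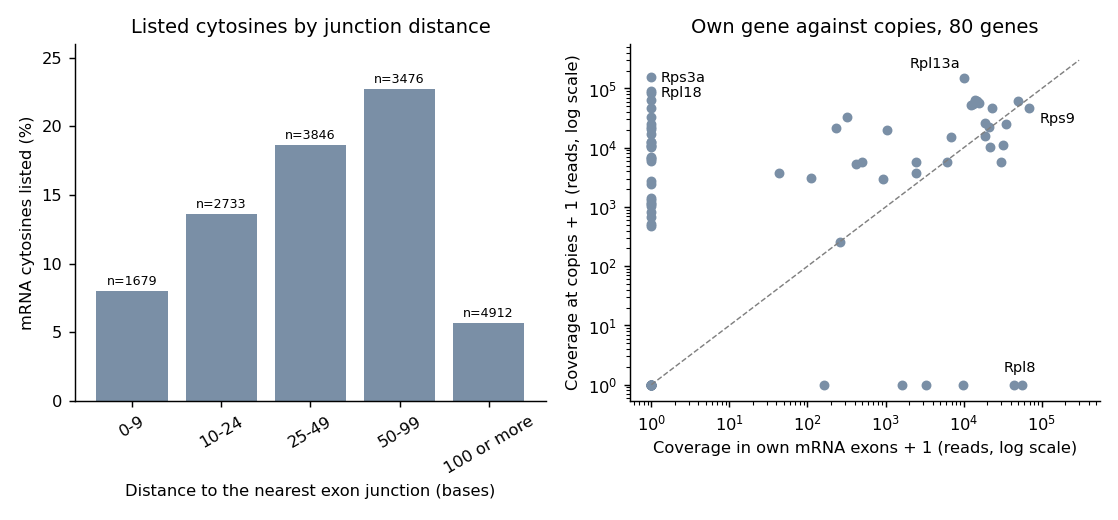
Left, percent of cytosines of the 80 RP mRNAs that were listed in any library, by distance in bases to the nearest exon junction. Right, coverage summed over all 8 libraries in the own mRNA exons (x axis, reads, log scale) against coverage at copies elsewhere in the genome (y axis, reads, log scale), each with 1 read added; 1 point is 1 gene, and 51 of 80 genes lie above the dashed line of equal coverage.

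RP exons also contain snoRNAs. In the exons of annotated RP transcripts, 2929 cytosines were listed, and 399 of them were shared with another gene on the same strand, in each case an annotated snoRNA gene inside a retained intron. These were not counted as members. They carried 89.9% to 92.6% of all coverage in RP exons over the cytosines listed in all 8 libraries. The values below describe the remainder.

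The question for coverage was whether RP transcripts took a different share of exonic reads in skin without NSun2. Together, RP cytosines held 0.475%, 0.358%, 0.496% and 0.586% of exonic coverage in WT replicates 1 to 4. In NSun2-/- replicates 1 to 4 they held 0.431%, 0.564%, 0.431% and 0.317%. The groups overlapped widely, with the lowest value in NSun2-/- replicate 4 and the highest in WT replicate 4. Relative to protein-coding exons alone, the shares were 1.03%, 0.752%, 1.26% and 1.39% in WT and 0.806%, 1.22%, 0.862% and 1.22% in NSun2-/- skin, so NSun2-/- replicate 4 was lowest only relative to all exons. The means were 0.479% ± 0.0939 in WT against 0.436% ± 0.101 in NSun2-/- skin (SD, n = 4 each), and their difference of −0.0428 percentage points was smaller than either SD. A sum over chosen genes was given no test. In a bulk sample, fewer cells of a type and less RNA per cell cannot be told apart. Of this coverage, 22.4% to 33.9% came from the 18 positions outside the mRNAs. For the mRNAs alone it was 0.361% ± 0.0718 in WT against 0.318% ± 0.0940 in NSun2-/- skin (SD, n = 4 each). By subunit, 60S mRNAs took 0.150% ± 0.0245 and 0.132% ± 0.0390, 40S mRNAs 0.165% ± 0.0370 and 0.149% ± 0.0434, and the P stalk 0.0470% ± 0.0122 and 0.0365% ± 0.0122 (WT and NSun2-/-, SD, n = 4 each). All 3 pairs overlapped.

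**Figure D2:**
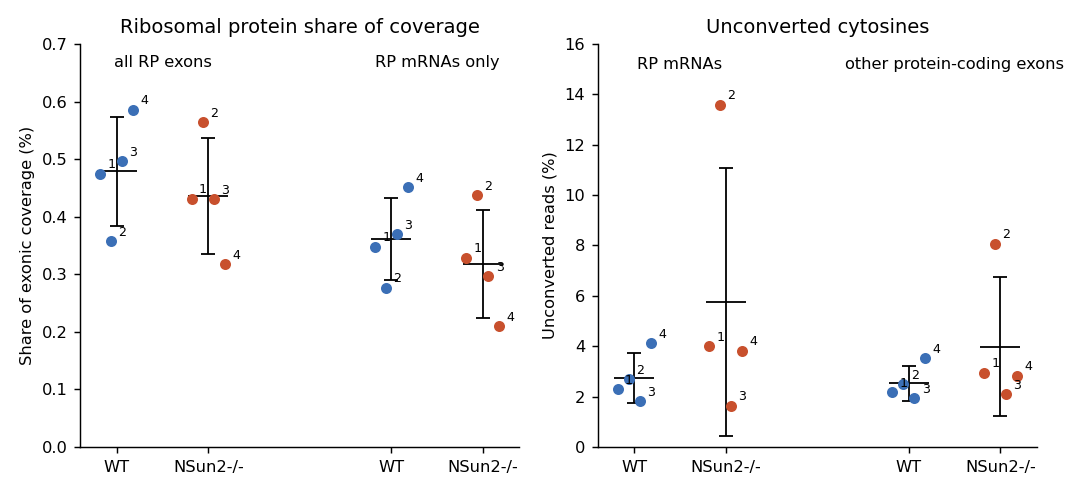
Left, share of exonic coverage (%) held by all RP exons and by RP mRNAs alone; right, percent of unconverted reads in RP mRNAs and in the other nuclear protein-coding exons. Points are libraries with their replicate number, horizontal bars are group means and error bars are SD (n = 4); the genotypes overlap in every panel, and NSun2-/- replicate 2 stands above all others on the right, at 13.6% in RP mRNAs.

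Gene by gene, 25 RP genes were among 1134 genes tested on coverage. None passed the threshold (edgeR's quasi-likelihood test, Benjamini-Hochberg adjusted p under 0.05), while 1.85% of all genes tested did, 0.794% higher and 1.06% lower. No RP gene had an unadjusted p under 0.05 in this test, beside 8.29% of all genes. There were 4 with DESeq2 (16%, beside 18.1% of all genes), 0 with limma (beside 5.91%) and 1 with edgeR's TMM normalization (4%, beside 13.2%), none of them past the adjusted threshold. The log2 fold changes (NSun2-/- over WT) ranged from −0.58 for Rpl7 to 0.67 for Rpl21, with standard errors of 0.34 to 0.40. Their median was −0.14, beside 0.06 over all genes tested. They were below 0 in 20 of 25 RP genes (80%) and in 44.1% of all genes. Without WT replicate 4, or without NSun2-/- replicate 4, 11 of 25 were below 0, beside 37.9% and 29.3% of all genes. The RP median then became 0.04 and 0.01, beside 0.10 and 0.22 over all genes. By role, 10 of 12 genes of the 60S subunit were below 0 (median −0.05), 7 of 10 of the 40S subunit (median −0.13) and 3 of 3 of the P stalk (median −0.38).

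Levels spread widely between RP genes. In unscaled reads per cytosine listed in all 8 libraries, the high values included Rpl12 with a mean of 3881 reads, Rpl22 with 129, Rps9 with 87.7 and Rpl21 with 74.5. Rpl12, a protein at the base of the stalk, and Rpl21 reached these levels through positions beside a snoRNA, since neither had an mRNA cytosine listed in all libraries. At the other end, Rps24 had a mean of 18.3 reads per cytosine and Rpl14 one of 23.5. For Rps9, a 40S protein at chr7:3655595-3658503 (mm9, plus strand) with 96 cytosines in all libraries, coverage was 511, 408, 509 and 815 CPM (reads per 1000000 reads of exonic coverage) in WT replicates 1 to 4. In NSun2-/- replicates 1 to 4 it was 552, 713, 486 and 301. WT replicate 4 was the highest and NSun2-/- replicate 4 the lowest, and the groups overlapped (log2 fold change −0.13, standard error 0.35, edgeR adjusted p = 0.981). For Rpl22, it was 211, 112, 256 and 275 in WT and 217, 165, 220 and 128 in NSun2-/- skin, again overlapping. Rpl12 measured 1237, 792, 1228 and 1301 in WT and 978, 1228, 1301 and 1047 in NSun2-/- skin, with overlapping groups and a log2 fold change near 0.

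The genes with the smallest p did not pass the threshold. Rplp2, an acidic protein at the tip of the P stalk (chr7:148633269-148637484, mm9, plus strand), measured 137, 134, 109 and 117 CPM in WT replicates 1 to 4 and 104, 108, 95.5 and 45.0 in NSun2-/- replicates 1 to 4. All 4 NSun2-/- values lay below all 4 WT values, the closest pair being 109 and 108. This was the only RP gene of 25 whose groups did not overlap, where 2.29% of all genes tested did not (log2 fold change −0.50, standard error 0.37, edgeR adjusted p = 0.833). Rplp2 also has a copy, Rplp2-ps1, with 92 listed cytosines. Rpl7 of the 60S subunit measured 190, 120, 168 and 197 in WT and 129, 98.4, 115 and 108 in NSun2-/- skin (log2 fold change −0.58, standard error 0.37, edgeR adjusted p = 0.716). Only WT replicate 2 fell among the NSun2-/- values. Rplp0, the scaffold of the stalk, measured 232, 136, 287 and 361 in WT and 178, 267, 197 and 139 in NSun2-/- skin, with the lowest library in WT. For Rps20 the log2 fold change was −0.32 (standard error 0.37). For Rpl21 it was 0.67 (standard error 0.39, edgeR adjusted p = 0.681), from 11.8, 3.68, 8.95 and 10.6 in WT and 17.8, 9.55, 17.7 and 10.4 in NSun2-/- skin. These Rpl21 reads covered 3 positions beside a snoRNA, and NSun2-/- replicates 1 and 3 were the high libraries.

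**Figure D3:**
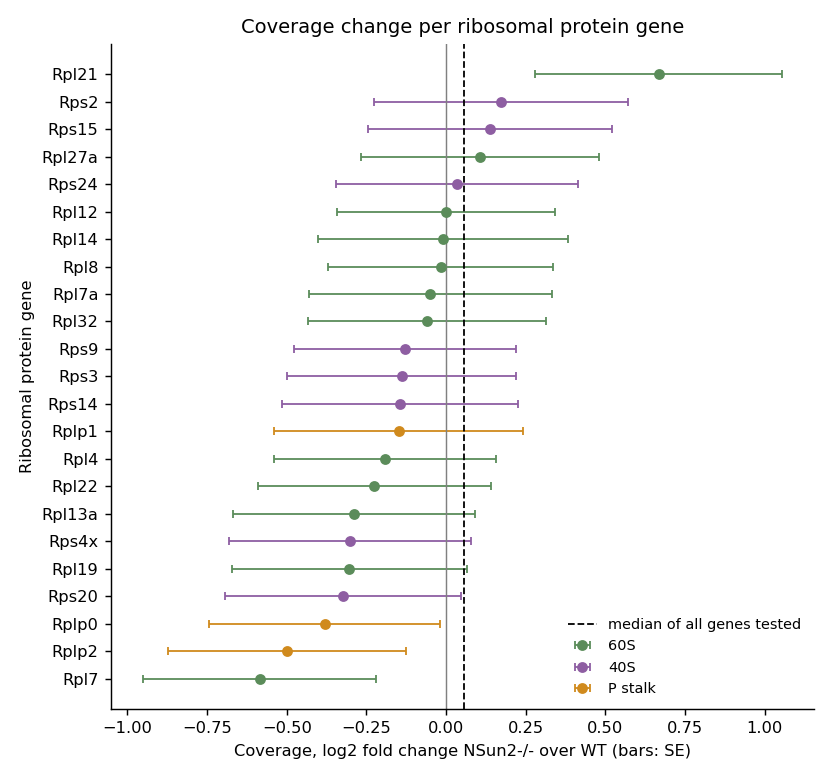
Log2 fold change of coverage, NSun2-/- over WT, for 23 of the 25 RP genes tested, coloured by subunit, with standard errors from edgeR; the dashed line is the median over all 1134 genes tested (0.06). The values run from −0.58 (Rpl7) to 0.67 (Rpl21), and none passed the threshold.

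Other parts of the translation apparatus were listed beside the RP genes. Of 3 ribosome partners that the symbol rule leaves out, 1 was tested. Gnb2l1, the 40S scaffold protein Rack1, had a log2 fold change of −0.01 (standard error 0.35). Of 32 translation factors, 11 were tested, with 0 called higher and 0 called lower, beside 0.794% and 1.06% of all genes tested. Their median log2 fold change was 0.01, and 5 of the 11 were below 0. Eef2, the elongation factor that drives translocation, measured −0.01 (standard error 0.35), Eef1a1, which delivers aminoacyl-tRNA, −0.19 (0.34), Eif4a2, an initiation helicase, 0.60 (0.38) and Eif5a 0.02 (0.37). The Eif4a2 value rested on 8 cytosines with a mean of 616 reads each, beside 507 cytosines with a mean of 100 reads in Eef2. Among 6 other mRNAs known for a pyrimidine tract at the 5′ end, Vim alone was tested (0.60, standard error 0.35, edgeR adjusted p = 0.681). Of 28 genes for ribosome assembly, nucleolin (Ncl) alone was tested (−0.07, standard error 0.39). Of 12 genes of the integrated stress response, Hspa5 (−0.30, standard error 0.36) and Atf4 (−0.69, standard error 0.39, from 1 cytosine) were tested, and neither passed.

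Markers of the cell types of skin showed where the libraries did differ. All 7 hair follicle genes tested of 10 fell, with a median log2 fold change of −2.87, beside 1.06% lower among all genes tested. Tchh, a protein of the inner root sheath, fell by 4.74 on the log2 scale (standard error 0.50, edgeR adjusted p = 8.13e-12), and Krt71, the most abundant of the list, fell by 3.16 (standard error 0.45). Summed over the list, coverage was 10312, 9215, 22095 and 45783 CPM in WT and 5467, 2827, 673 and 2102 in NSun2-/- skin, and Krt72 was not listed. Of 7 skeletal muscle genes tested, Acta1 (log2 fold change 1.43) and Myh1 (1.80) rose, beside 0.794% higher among all genes tested, and the list summed to 6024, 8086, 5292 and 3063 CPM in WT and 7844, 14691, 10536 and 4795 in NSun2-/- skin. None of 9 epidermal keratinocyte genes (median −0.03, Dsp the most abundant), 9 dermal fibroblast genes (0.41, Col1a1), 7 adipocyte genes (0.57, Scd1) and 2 leukocyte genes (−0.13, Lyz2) passed. All 10 keratinocyte and all 10 fibroblast markers were listed, as the tissue label implies, whereas no endothelial or erythroid marker reached the test. The part of cell composition in the RP values was not tested.

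For unconverted cytosines, the question was whether their percent in RP mRNAs differed in skin without NSun2. In RP mRNAs, 2.28%, 2.69%, 1.81% and 4.12% of reads were unconverted in WT replicates 1 to 4, and 4.01%, 13.6%, 1.63% and 3.82% in NSun2-/- replicates 1 to 4. NSun2-/- replicate 2 was far above the rest and replicate 3 was the lowest of all 8, so the groups overlapped. Other nuclear protein-coding exons showed 2.18%, 2.48%, 1.93% and 3.52% in WT and 2.94%, 8.07%, 2.08% and 2.83% in NSun2-/- skin. The same library stood out there. The means for RP mRNAs were 2.72% ± 0.998 in WT against 5.76% ± 5.33 in NSun2-/- skin (SD, n = 4 each). The 95% Wilson intervals for a library reached 0.0846 to 0.419 percentage points either side. They treat every count at every cytosine as independent, although a read that spans several cytosines is counted at each. They are thus too narrow even for counting error, and leave out the spread between libraries.

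Relative to the other exons of the same library, RP mRNAs stood at 1.05, 1.08, 0.937 and 1.17 times in WT and at 1.36, 1.68, 0.783 and 1.35 times in NSun2-/- skin. The NSun2-/- values thus reached both further above and further below the WT range. The percent was similar across subunits in WT, with 2.79% ± 1.02 in 60S mRNAs, 2.60% ± 0.965 in 40S mRNAs and 2.96% ± 1.22 in the P stalk (SD, n = 4). Within WT, it was 1.48% ± 0.982 over 12 cytosines of 5′ untranslated regions, 2.73% ± 1.01 over 953 of coding sequence and 4.16% ± 1.89 over 5 of 3′ untranslated regions (SD, n = 4). By the following base, it was 3.00% ± 0.934 before A, 2.57% ± 1.00 before C, 2.75% ± 0.970 before G and 2.52% ± 1.20 before T (SD, n = 4). Within libraries, the percent before A was above that before C and before G in 8 of 8, and above that before T in 7 of 8. In other protein-coding exons, the corresponding means were 2.89%, 2.45%, 2.50% and 2.31%.

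Per gene, 20 RP genes were among 966 tested for the unconverted percent. None passed the threshold, and 0% of all genes did (edgeR's quasi-likelihood test, Benjamini-Hochberg adjusted p under 0.05). At an unadjusted p under 0.05 there were 2 RP genes (10%), Rpl13a and Rplp1, and 25 of all genes (2.59%). With limma, 0 of the 20 RP genes and 0 of all 966 genes passed the adjusted threshold. The log2 odds ratio was above 0 in 20 of 20 RP genes and in 84.8% of all genes, with medians of 0.71 and 0.47. NSun2-/- replicate 2 had the highest percent of the 8 libraries in 20 of 20 RP genes, and in 76.2% of all genes. Without this library, 13 of 20 RP genes and 56.0% of all genes were above 0, with medians of 0.14 and 0.06.

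Rpl13a, a 60S protein also known from translational control, had the highest mean percent in WT among the 20 RP genes tested, those with at least 100 reads in every library, with 5.51%, 5.19%, 5.66% and 7.05% in WT replicates 1 to 4 and 11.4%, 21.3%, 8.92% and 10.7% in NSun2-/- replicates 1 to 4. All NSun2-/- libraries lay above all WT libraries. It was the only RP gene of 20 without overlap, where 1.86% of all genes had none and 1.55% were higher without overlap (log2 odds ratio 1.20, standard error 0.50, edgeR adjusted p = 0.868). Of its 24 cytosines listed in all libraries, 5 lay beside the snoRNA Snord32a. The 19 cytosines of the mRNA measured 1.70%, 4.65%, 1.87% and 1.37% in WT and 4.43%, 15.4%, 3.02% and 2.48% in NSun2-/- skin, so within the mRNA the groups overlapped. Rplp1, the other acidic stalk protein (chr9:61761091-61762345, mm9, minus strand), measured 5.16%, 1.52%, 1.74% and 4.11% in WT and 12.6%, 27.0%, 2.11% and 10.5% in NSun2-/- skin. NSun2-/- replicate 3 fell within the WT range and the other 3 lay above it (log2 odds ratio 1.95, standard error 0.82, edgeR adjusted p = 0.868).

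After Rpl13a, the highest WT means among these 20 genes were those of Rps14 (4.70% ± 2.72), Rps15 (4.69% ± 3.57), Rpl4 (3.19% ± 1.10) and Rpl22 (3.14% ± 1.30), and among the lowest were Rpl19 (1.64% ± 0.868) and Rpl12 (1.79% ± 0.538; SD, n = 4). In NSun2-/- skin, Rps14 measured 7.46%, 34.9%, 1.12% and 4.78%, so that its mean of 12.1% ± 15.4 rested on replicate 2. Rpl8 and Rpl14, next by p, had log2 odds ratios of 1.18 (standard error 0.71) and 1.17 (standard error 0.80).

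**Figure D4:**
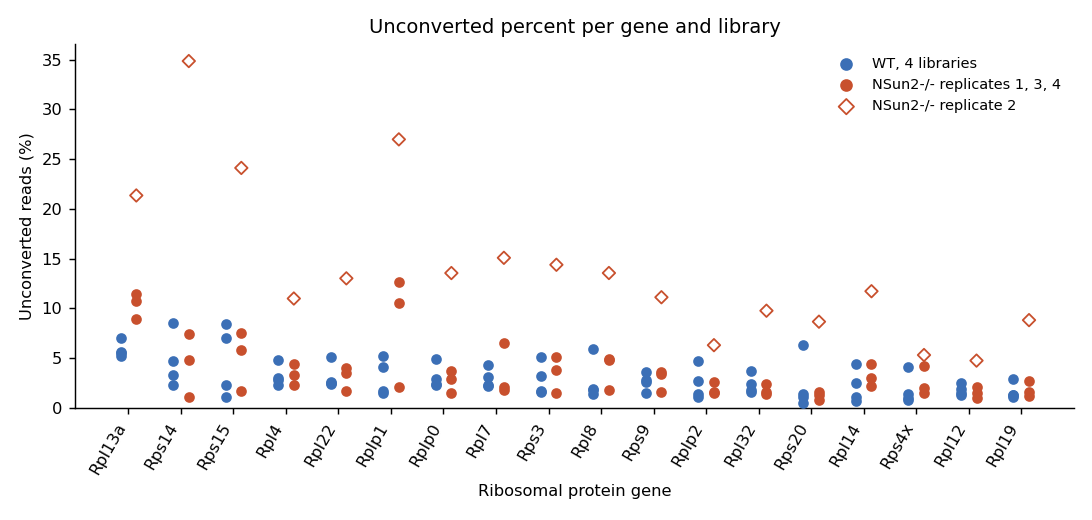
Percent of unconverted reads per RP gene for 18 of the 20 genes tested, ordered by the WT mean, with 1 point per library; blue points are WT, filled red points NSun2-/- replicates 1, 3 and 4, and open diamonds NSun2-/- replicate 2. The open diamond is the highest value in all 18 genes shown and reaches 34.9% in Rps14.

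At the level of cytosines, 1435 RP positions were among 122736 tested. Exactly 1 of them was called (edgeR adjusted p under 0.05 and at least 10 percentage points), beside 0.262% of all cytosines tested (0.114% higher and 0.147% lower), and it lay outside the mRNAs. Of the 1400 positions within RP mRNAs, in 25 genes, 0 were called, and 52 (3.71%) had an unadjusted p under 0.05, 6 of them lower in NSun2-/- skin. Over all cytosines tested, 3538 (2.88%) did, 868 of them lower. With limma, 0 of the 1435 positions passed, and 49 (3.41%) had an unadjusted p under 0.05, beside 4.57% of all. No position in the mRNAs reached 20% in the mean of the WT libraries, compared with 0.486% of 91928 positions in other nuclear protein-coding exons. The highest stood at 17.4%, 14 reached 10%, and 224 (16%) were at 0% in WT. A call needs a difference of at least 10 percentage points, so only these 14 positions could have been called lower. For the other mRNA positions, the absence of a lower call was fixed in advance and says nothing about a loss. In the mean of the NSun2-/- libraries, 4 RP mRNA positions (0.286%) reached 20%, beside 0.674% in the other exons. Medians were 2.38% in WT and 4.68% in NSun2-/- skin, beside 1.93% and 2.79% in the other exons.

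The sequences around the mRNA positions with the highest WT percent and with the smallest p are shown to place them. Each is 21 bases, 5′ to 3′ on the sense strand (mm9), with the measured cytosine in capitals.
Rps2, chromosome 17, position 24857310: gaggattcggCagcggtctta
Rps3, chromosome 7, position 106628415: tatgtcgacaCagctgtgcgc
Rpl8, chromosome 15, position 76734827: cgccgcgcgcCtacgtgctgt
Rplp1, chromosome 9, position 61761189: aaagtggaggCaaagaaggaa
Rplp1, chromosome 9, position 61761249: ggagctgcgcCtgctggtggt
All lie in coding sequence. The Rps2 position had 20%, 10%, 9.09% and 30.4% unconverted reads in WT replicates 1 to 4 and 20.6%, 47.8%, 0% and 5% in NSun2-/- replicates 1 to 4, from 10 to 34 reads per library. The Rps3 position was listed in 3 libraries per genotype, at 16.3% ± 9.66 and 15.7% ± 13.8 (SD, n = 3 each). The libraries of both genotypes overlapped at both positions. In Rpl8, position 76734827 was at 0% in all 4 WT libraries and at 3.37%, 38.1%, 0% and 3.85% in NSun2-/- skin (edgeR adjusted p = 0.560). Only NSun2-/- replicate 2 was high there, from 21 reads. In Rplp1, position 61761189 measured 4.35%, 0%, 0% and 2.86% in WT and 20%, 37.0%, 6.15% and 10.6% in NSun2-/- skin (edgeR adjusted p = 1). Position 61761249 measured 0%, 0%, 0% and 2.56% in WT and 15.2%, 26.9%, 1.72% and 12.5% in NSun2-/- skin (edgeR adjusted p = 0.800). At the first of these, named for its small p, all NSun2-/- libraries lay above all WT libraries. The same held for 24 of 970 RP mRNA cytosines tested and listed in all 8 libraries (2.47%) and for 2.87% of all 66816 such cytosines. At the second, NSun2-/- replicate 3 fell among the WT libraries.

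Higher percentages were found in annotated exons outside the mRNAs. All 35 positions tested there, in 7 genes, lay within 50 bases of a snoRNA on the same strand. Their median was 27.3% in WT and 33.1% in NSun2-/- skin, and 20 of them, in 4 genes, reached 20% in WT. The 6 positions on the 5′ side, in Rpl12 and Rps3, were all under 4% in both genotypes. Of the 29 on the 3′ side, in 5 other genes, 20 reached 20% in WT and 9 did not. No gene had tested positions on both sides, so side and gene cannot be told apart. Among the RP positions tested, the 8 highest in WT were all of this kind. Their number per gene was 3 in Rpl7a (beside copies of SNORD36), 3 in Rpl27a (Snora3) and 2 in Rpl21 (SNORD102), all 60S genes. At 2 further positions, each listed in only 1 WT library and so not tested, the WT value was 90% in Rps2 (16 bases from Snora64), a 40S gene, and 94.4% in Rpl27a (32 bases from Snora3). Whether these reads belong to RP transcripts or to snoRNA precursors cannot be told apart from position alone.

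The sequences of these 8 positions, the highest RP values tested, and of the called position are given to place them. Each is 21 bases, 5′ to 3′ on the sense strand (mm9, plus strand), with the measured cytosine in capitals.
Rpl7a, chromosome 2, position 26768461: gggtttattaCtcctgcttct
Rpl7a, chromosome 2, position 26768146: gtgcagctagCtgttgcttct
Rpl7a, chromosome 2, position 26768467: attactcctgCttcttaaaca
Rpl21, chromosome 5, position 147646504: tgaaagggagCcttggttagt
Rpl21, chromosome 5, position 147646487: agttcttgagCtgaccttgaa
Rpl27a, chromosome 7, position 116663782: ttaacccattCaaagttacgt
Rpl27a, chromosome 7, position 116663776: gtcaagttaaCccattcaaag
Rpl27a, chromosome 7, position 116663798: tacgttgcacCctatttaggg
Rpl27a, chromosome 7, position 116663799 (called): acgttgcaccCtatttaggga
At position 26768461 of Rpl7a, 26 bases downstream of SNORD36, 93.3%, 97.6% and 100% of reads were unconverted in WT replicates 1, 3 and 4, and 87.3%, 87.9% and 95.7% in NSun2-/- replicates 1, 3 and 4. At position 147646504 of Rpl21, 24 bases downstream of SNORD102, the values were 93.0%, 93.3%, 88.9% and 89.2% in WT and 89.3%, 95%, 93.3% and 90.6% in NSun2-/- skin. At position 116663782 of Rpl27a, 17 bases downstream of Snora3, they were 95.8%, 85.7%, 97.4% and 100% in WT and 97%, 100%, 97.1% and 98.6% in NSun2-/- skin. These positions were thus unconverted in most reads of both genotypes, and none of the 3 was called. Neighbouring cytosines could be low, as at position 147646491 of Rpl21, with 3.35% ± 2.57 in WT against 11.1% ± 3.91 in NSun2-/- skin (SD, n = 4 each).

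Differences between genotypes in this group were uneven across genes. Over the 35 positions, 28 had a higher mean in NSun2-/- skin (80%), beside 67.4% of all cytosines tested. Many of the 35 lie within a few bases of one another and can share reads, so they are not separate observations. Averaged with equal weight over the 18 positions listed in all 8 libraries, the percent was 26.9%, 22.4%, 29.5% and 27.4% in WT replicates 1 to 4 and 30.9%, 37.8%, 31.5% and 30.3% in NSun2-/- replicates 1 to 4, so the groups did not overlap. Without the 5 positions of Rpl13a they did, at 24.7% to 26.1% in WT and 24.9% to 30.5% in NSun2-/- skin. In Rpl13a, beside Snord32a and Snord33, 10 of 12 were higher, with medians of 29.1% in WT and 48.8% in NSun2-/- skin. Averaged over the 5 Rpl13a positions listed in all libraries, the values were 32.6%, 12.7%, 41.1% and 31.0% in WT replicates 1 to 4 and 46.4%, 56.7%, 45.8% and 43.9% in NSun2-/- replicates 1 to 4. WT replicate 2 was the lowest and NSun2-/- replicate 2 the highest, and the groups did not overlap, on 10 to 69 reads per position and library. Of single cytosines tested and listed in all 8 libraries, 3.44% did not overlap. The Rpl13a set was picked after its values were seen, and such a share was not computed for other sets of positions. In Rpl21 the corresponding means were 57.6% ± 2.47 and 61.9% ± 2.58, and in Rpl27a 70.7% ± 4.88 and 69.1% ± 7.51 (WT and NSun2-/-, SD, n = 4 each), both overlapping. In Rpl12, beside Snora65, they were 1.44% ± 0.413 and 2.05% ± 1.56. No position of Rpl13a was called, the largest difference being 32.6 percentage points at position 52382737 (edgeR adjusted p = 1).

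The called position was 116663799 of Rpl27a, 34 bases downstream of Snora3. It was listed in 3 libraries per genotype, at 100%, 51.9% and 26.3% in WT replicates 2, 3 and 4 and at 95.8%, 98.4% and 88.2% in NSun2-/- replicates 1, 3 and 4, from 10 to 64 reads. WT replicate 2 was the highest of all, so the groups overlapped, although the means differed by 34.8 percentage points (edgeR adjusted p = 0.0374). The call was lost with limma (adjusted p = 0.959), with a replicate block (edgeR adjusted p = 0.585) and at a minimum of 30 reads, where the position was not tested. Leaving out WT replicate 1, 3 or 4 or NSun2-/- replicate 1, 3 or 4 also lost it. Its neighbour at 116663798, 1 base upstream, measured 83.8% ± 0.740 in WT against 92.4% ± 1.48 in NSun2-/- skin (SD, n = 3 each, edgeR adjusted p = 1).

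**Figure D5:**
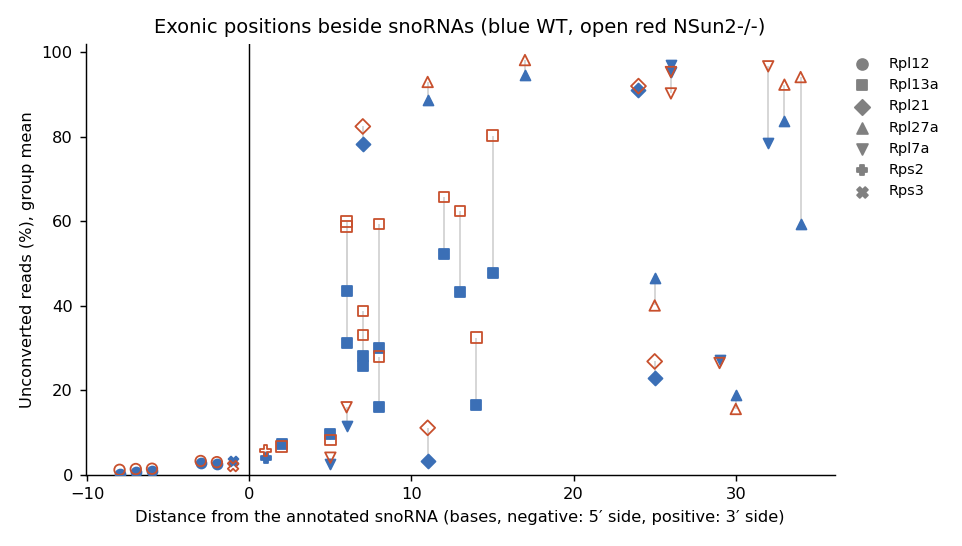
Mean percent of unconverted reads at the 35 tested positions in RP exons beside snoRNAs (y axis), against distance in bases from the annotated snoRNA (x axis, negative on its 5′ side), with 1 marker shape per gene; filled blue is WT, open red NSun2-/-, and grey lines join the same position. High values occur on the 3′ side in Rpl7a, Rpl21, Rpl27a and Rpl13a, and all 6 positions on the 5′ side are under 4%.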

How the data were processed

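Bisulphite-converted, ribosomal RNA-depleted total RNA of 4 WT and 4 NSun2-/- back skin samples had been sequenced as single reads. The authors aligned reads with Bismark 0.7.6, per the submitters' processing notes, and deposited, per cytosine, unnormalized counts of both kinds of read (unconverted, converted) with the percent unconverted, for positions with at least 10 reads. The methods name GRCm38 transcripts, but all 897815 deposited positions fall on C or G of mm9, which was used here. The authors' filter on reads with many unconverted cytosines cannot be applied to counts per position.

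Exons came from GENCODE vM1 (Ensembl 65). Positions in exons of more than 1 gene were left out, and values were counted over cytosines listed in all 8 libraries unless stated, since listing depends on depth. The representative mRNA of a gene was its shortest coding transcript with a consensus coding sequence, where it had one. Coverage per gene entered edgeR's quasi-likelihood test (filterByExpr, library size equal to exonic coverage). Unconverted and converted counts were tested with the same tool as an interaction of genotype and conversion state, for genes with at least 100 reads in every library and for cytosines that reached 10 reads in 3 or more libraries per genotype. All genes or cytosines were fitted together and p-values adjusted over all of them (Benjamini-Hochberg). Alternatives used DESeq2, limma (pseudocount 0.5), TMM, other cytosine sets and library totals, a replicate block, and each library left out. The tests were run on simulated counts with 100 changed features of each kind. For coverage per gene, 49 changes of 2-fold and 100 of 4-fold were recovered. For the percent per gene, 50 were recovered at an odds ratio of 4 and 91 at 8. Per cytosine, 83 rises and 41 falls of 40 percentage points were recovered. Many changes of these sizes could therefore be missed. Tools were Python 3.11.15, pandas 2.3.3, numpy 2.4.6, pysam 0.24.0 and matplotlib 3.10.9, and R packages edgeR 4.0.16, DESeq2 1.42.0 and limma 3.58.1 under R 4.3.3. Copies were places elsewhere in mm9 that match a 50-base window of an RP mRNA after conversion of C to T.

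Sequences were read from the mm9 genome. Some genes and sequences are not reported here. Sets of genes were RP genes, ribosome partners, translation factors, pyrimidine-tract mRNAs, ribosome assembly, the integrated stress response and 8 lists of cell type markers. The members and lists were chosen with earlier results of these data known. Named genes were those with the most reads per cytosine, the smallest p, non-overlapping groups, or the highest and lowest WT percent. Named cytosines were those called and the 8 highest in WT. Positions in the mRNAs, the Rpl13a positions and the junction sequence were added after their values were seen. p-values measure the spread between 4 libraries per genotype, and PCR reads without molecular identifiers are not independent molecules.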

Additional observations from a re-analysis of the deposited data

Results flagged for a closer look

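Among 60 groups of 4 libraries, 4 held 1 library whose gap to the nearest other library exceeded Dixon's 95% limit, which chance passes in about 1 of 20 groups. They concern 4 genes, and the 60 groups did not cover every gene tested. Coverage of Rpl12 in WT replicate 2 was 792 CPM (relative to exonic coverage), below the other WT libraries. The unconverted percent of Rpl22 in WT replicate 4 was 5.08%, and that of Rpl8 in the same library 5.87%, both above the other WT libraries. The unconverted percent of Rpl19 in WT replicate 1 was 2.94%, above the other WT libraries. Outside the 60 groups, single libraries also stood far above the rest of their group in unconverted percent. These were Rps20 in WT replicate 4 (6.34%) and in NSun2-/- replicate 2 (8.66%), and Rpl32 in NSun2-/- replicate 2 (9.76%). No cause was tested.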

How the results depend on the processing

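No RP gene was called on coverage or on unconverted percent under any alternative run (0 in each, also with each library left out in turn). The 1 RP cytosine called became 0 at a minimum of 30 reads, with limma, with a replicate block and with representative mRNAs only, where the position is not part of the mRNA, and it ranged from 0 to 1 with a library left out. The difference in the RP share of exonic coverage (NSun2-/- minus WT) was −0.0428 percentage points, −0.0828 with protein-coding library totals, −0.571 with overlapping snoRNA genes kept, −0.222 with reads at copies added, and −0.0855 to −0.00333 with a library left out. The difference in percent unconverted over all RP cytosines, those beside snoRNAs included, was 2.56 percentage points (3.03 in the mRNAs alone), and 0.366 to 3.70 with a library left out, lowest without NSun2-/- replicate 2. The median RP log2 fold change of coverage, −0.14, ranged from −0.37 to 0.04 with a library left out, and its sign turned without WT replicate 4 (0.04) and without NSun2-/- replicate 4 (0.01). The median log2 odds ratio ranged from 0.14 to 1.17. With all listed cytosines, the median of all genes shifted by 0.61 to 0.67 on the log2 scale, while that of the RP genes was −0.17. Genes called on coverage among all tested numbered 21, against 49 with DESeq2, 11 with TMM, 13 with limma, 0 with all listed cytosines, 9 with protein-coding library totals and 12 with the replicate block. Cytosines called among all tested numbered 321, 332 with the block, 136 with limma and 120 at 30 reads, and 167 to 703 with a library left out. The cause of these changes was not tested.

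Replicate numbers did not pair the libraries. Same-numbered WT and NSun2-/- libraries had correlations of −0.03, −0.10, −0.05 and 0.00 between their deviations from the group means across genes. With the replicate block, the RP median on coverage was −0.15 and the log2 odds ratio 0.75, with 0 RP genes called on either, the RP cytosines called falling from 1 to 0.

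Depth limits these results. With a median of 21 to 77 reads per RP mRNA cytosine and library, differences at a position, large ones included, could be missed. RP genes without a cytosine listed in all 8 libraries were not compared in the main tests per gene.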
